A study of Homo sapiens with 9 samples.

Results

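The tripartite motif (TRIM) genes encode a large family of proteins, most of them RING-type E3 ubiquitin ligases that attach ubiquitin to substrate proteins. Members are built from a RING domain, B-box zinc fingers and a coiled coil, followed by a C-terminal domain that differs between subfamilies and picks the partner. Many members act in antiviral defence and are induced by interferon, several are found mainly in testis, muscle or nerve, and others are present in most cells. The subfamily with a C-terminal PHD finger and bromodomain acts in the nucleus on chromatin.

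Expression of this family was examined in PC-3 cells, an established line from a castration-resistant prostate cancer. There were 9 RNA-seq libraries, 3 from vehicle-treated controls, 3 from cells treated with 1 µM decitabine, and 3 from cells that received decitabine and 200 µM S-adenosylmethionine (SAM) at the same time, called the combination treatment here. The doses are those of the study's methods, and the labels give 5 days of treatment before extraction, worded for genomic DNA. Decitabine is a cytidine analogue that is built into DNA and traps DNA methyltransferases, and SAM is the methyl donor of cellular methylation. The labels give no genotype, and libraries of SAM-only cells are not part of this work, so the comparison of both treatments sets decitabine with SAM against decitabine without it. No label says that replicates came from separate cultures, so p-values measure the spread between these libraries, which may be technical.

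Members were the protein-coding genes whose symbol is TRIM, a number and at most 1 further letter. The rule found 73 genes among 19892 protein-coding genes. By background knowledge they were divided into 11 interferon-inducible members, 17 known mainly from testis or early embryo, 19 restricted to other tissues and 26 that are broadly expressed. Of the 73 members, 52 passed the filter on low counts and were tested, namely 11 interferon-inducible, 3 testis or embryo, 12 other tissue-restricted and 26 broadly expressed members. The remaining 21 are accounted for with their counts further on.

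Totals lay between 21934307 and 22489684 estimated counts per library. Levels are given as CPM, the counts of a gene relative to the total of its library, after TMM scaling, which evens out differences in library composition. Fold changes and adjusted p-values come from the quasi-likelihood test of edgeR, fitted on 18532 genes with Benjamini-Hochberg adjustment, and a member is called up- or downregulated at an adjusted p under 0.05. Epithelial keratins were present, with KRT18 at 426 CPM in the controls, while the prostate antigen gene KLK3 had no count. CDH1, another epithelial marker, averaged 1.87 CPM in controls, 14.4 under decitabine and 16.9 under the combination treatment. The epithelial markers were split against control, as KRT8 and CDH1 rose with both treatments, KRT18 and KRT19 fell with both, and EPCAM was not called. Of 4 immune markers none exceeded a group mean of 1.06 CPM, and 2 of these 4 rose with both treatments. Of 3 fibroblast markers 2 rose with both treatments, COL1A1 with means of 2.98, 57.6 and 47.2 CPM in controls, decitabine and combination treatment and COL1A2 with 0.614, 45.7 and 33.2 CPM, while PDGFRB averaged 0.481, 0.366 and 0.477 CPM and was not called. The part of these markers in the results was not tested.

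One library stood apart. Replicate 3 of the combination treatment had the highest level of its group for 11 of 11 interferon-inducible members and for 12 of 12 other genes of the interferon response. The summed level of the 11 members was 404 and 438 CPM in replicates 1 and 2 and 587 CPM in replicate 3. Where leaving out this library changed a call, the value without it is given, along with some of the other values.

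Under decitabine, 25 members were upregulated and 11 downregulated, while 68.8% of all genes tested changed in either direction, and 16 members did not pass the test. Of the 52 tested members these were 48.1% upregulated and 21.2% downregulated, beside 36.3% and 32.5% of all genes tested. Under the combination treatment 20 members were upregulated, 13 downregulated and 19 not called, or 38.5% and 25.0% beside 35.9% and 31.3% of all genes (67.2% in either direction). In both comparisons the upregulated members include the same 7 that had, in every control library, fewer counts than the filter asked for. Treated libraries alone brought these 7 past the filter, so that their higher level was fixed by it. TRIM74, also among the 25, passed the filter only with the decitabine libraries, so its call there is a description. Between the treatments, 2 members were higher and 14 lower under the combination treatment than under decitabine, and 36 were not called. These were 3.85% and 26.9% of the tested members, beside 7.67% and 8.02% of all genes (15.7% in either direction). Groups without overlap between their libraries were seen with decitabine in 32 members that were higher and 12 that were lower, beside 38.1% and 34.8% of all genes. With the combination treatment these were 23 and 15 members, beside 38.0% and 33.6%, and between the treatments 8 and 16, beside 17.2% and 16.8%. With library size as the only scaling, the members called were 35 upregulated and 7 downregulated with decitabine and 29 and 12 with the combination treatment. The median log2 fold change of the members was 0.24, 0.11 and -0.03 in these comparisons, against 0.03, 0.05 and 0.00 over all genes. The 2 comparisons with controls share the control libraries, and the 2 that include decitabine share those libraries.

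**Figure D1:**
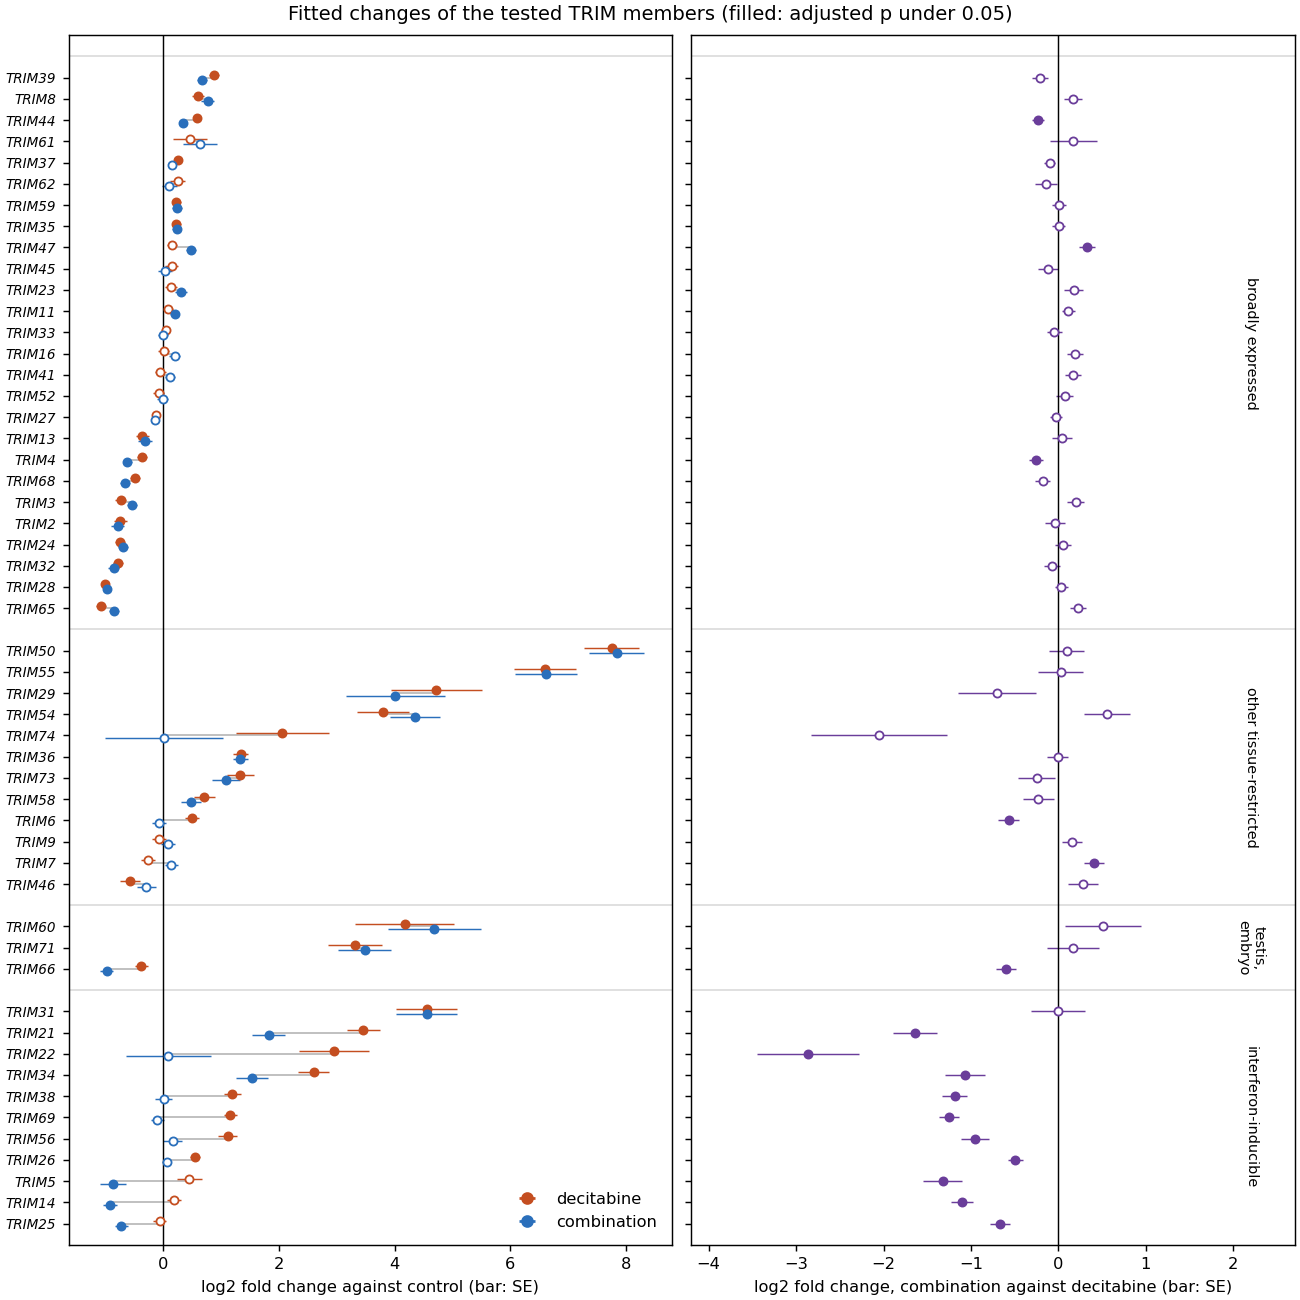
Fitted log2 fold changes of the 52 tested members, by class, with bars for the SE. The left panel shows decitabine and the combination treatment against control, the right panel the combination treatment against decitabine, and filled points passed an adjusted p of 0.05. TRIM29, TRIM31, TRIM50, TRIM54, TRIM55, TRIM60 and TRIM71 passed the low-count filter through treated libraries alone, and TRIM74 only with the decitabine libraries. Their filled points in the left panel are therefore a description. In the right panel 10 of 11 interferon-inducible members are filled and left of 0, while 23 of 26 broadly expressed members are open.

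The interferon-inducible members carried most of the calls between the treatments. Under decitabine 8 of 11 were upregulated and 0 downregulated, or 72.7% and 0% beside 36.3% and 32.5% of all genes tested. TRIM31, whose higher level was fixed by the filter, is among the 8. In a fit of only the 6 libraries compared 10 were upregulated. Between the treatments 10 of 11 were lower under the combination treatment than under decitabine, or 90.9% beside 8.02% of all genes. Their median log2 fold change was 1.16 for decitabine against control, 0.06 for the combination treatment against control and -1.10 for the combination treatment against decitabine. Without combination replicate 3 the last medians were -0.22 and -1.36, and again 10 of 11 were lower than under decitabine. Among the other 41 tested members 4 were lower and 2 higher in that comparison. Read over the 3 comparisons, the 11 members fell into 3 patterns with 1 exception. TRIM21 and TRIM34 stayed above control under both treatments, TRIM22, TRIM26, TRIM38, TRIM56 and TRIM69 rose with decitabine and were not called under the combination treatment, and TRIM5, TRIM14 and TRIM25 were not called with decitabine and fell below control under the combination treatment. TRIM31, 1 of the 7 members that passed the filter through treated libraries alone, was higher with both treatments and did not pass the test between them.

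The interferon-stimulated response element (ISRE) is a promoter motif of interferon-stimulated genes, and its core was searched in these promoters as GAAA, any 2 bases and GAAA again, on both strands. RefSeq promoter windows on GRCh38.p14 run from 250 bases before to 50 bases after the start and were at hand for 58 of the 73 members. The core occurred in 6 of 10 interferon-inducible members with a window, in 10 of 58 members, and in 488 of 15325 protein-coding promoters, or 3.18%. It was found in TRIM5, TRIM14, TRIM21, TRIM26, TRIM34 and TRIM69, and these letters did not occur in the windows of TRIM25, TRIM31, TRIM38 and TRIM56. The gamma-activated site, searched as TTCNNNGAA, matched 0 of these 10, 10 of 58 members and 6.96% of all protein-coding promoters, and no ISRE core overlapped it. Windows around the core are shown for the 3 interferon-inducible members in which they lie before the start and outside annotated exons, with the core in capitals. The 46 bases of TRIM26 are at chr6:30213570-30213615 on the minus strand and hold 2 overlapping cores. The 40 bases of TRIM14 are at chr9:98119224-98119263 on the minus strand, and like those of TRIM26 they lie outside any annotated gene. The 40 bases of TRIM34 are at chr11:5624896-5624935 on the plus strand, in an intron of longer TRIM34 and TRIM6-TRIM34 transcripts. Between the core nearest to the start and the start itself lie 16 bases in TRIM14, 80 in TRIM34 and 178 in TRIM26.
TRIM14: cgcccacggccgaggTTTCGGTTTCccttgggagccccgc
TRIM26: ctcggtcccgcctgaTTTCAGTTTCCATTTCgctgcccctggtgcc
TRIM34: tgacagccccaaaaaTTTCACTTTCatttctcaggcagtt
These 3 members differed in their response. TRIM34 rose with both treatments, TRIM26 rose with decitabine alone, and TRIM14 fell under the combination treatment. A match is a description of the letters and was not tested as a binding site.

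TRIM21, a cytosolic antibody receptor and ubiquitin ligase that targets antibody-bound virus, changed most in CPM among the interferon-inducible members that rose. Its level was 7.30, 8.05 and 6.81 CPM in the 3 controls, 90.4, 72.7 and 81.1 CPM under decitabine, and 20.7, 19.2 and 38.6 CPM under the combination treatment. The 3 groups did not overlap, and the combination treatment lay between control and decitabine. It was 11-fold higher under decitabine than in controls (log2 3.46 ± 0.29 SE, adjusted p = 1.4e-05) and 3.54-fold higher under the combination treatment (adjusted p = 0.00067). Between the treatments it was 3.11-fold lower under the combination treatment (log2 -1.64 ± 0.25 SE, adjusted p = 0.0067), and -2.03 on the log2 scale without combination replicate 3. The gene lies at chr11:4384897-4393702.

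TRIM34, TRIM22, TRIM5 and TRIM6 lie next to each other at chr11:5596109-5938619 and encode related proteins, of which TRIM5 binds incoming retroviral capsids. All 4 were lower under the combination treatment than under decitabine, and 3 of them rose with decitabine against control. TRIM34 had 1.09, 1.90 and 1.53 CPM in controls, 8.96, 9.45 and 9.11 under decitabine, and 2.66, 4.49 and 5.96 under the combination treatment. The groups of TRIM34 did not overlap, with a 6.07-fold rise with decitabine (adjusted p = 1.4e-06) and log2 fold changes of 1.53 ± 0.28 SE for the combination treatment and -1.07 ± 0.23 SE between them (adjusted p = 0.0091). TRIM22, an antiviral member, had 0.794, 0.750 and 0.444 CPM in controls, 4.82, 4.43 and 6.27 under decitabine, and 0.131, 0.308 and 1.66 under the combination treatment. In TRIM22 the combination replicates 1 and 2 lay below every control and replicate 3 above them. TRIM22 rose 7.75-fold with decitabine (log2 2.95 ± 0.60 SE, adjusted p = 0.0019) and was 7.28-fold lower under the combination treatment than under decitabine (log2 -2.86 ± 0.58 SE, adjusted p = 0.014). The latter call was lost without combination replicate 2 (log2 -2.51, adjusted p = 0.058), and without replicate 3 the value was -4.53. Against control TRIM22 was at 0.09 under the combination treatment (adjusted p = 0.92), and without replicate 3 it was called lower at -1.58 (adjusted p = 0.010).

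TRIM5 had 41.0, 34.6 and 26.2 CPM in controls, 50.9, 44.5 and 43.8 under decitabine, and 13.8, 17.0 and 24.8 under the combination treatment. Every decitabine library lay above every control and every combination library below, yet the controls spread widely. TRIM5 was lower under the combination treatment than under decitabine (log2 -1.32 ± 0.22 SE, adjusted p = 0.0073) and 1.83-fold lower than in controls (log2 -0.87 ± 0.22 SE, adjusted p = 0.0077). Its value for decitabine against control was 0.45 ± 0.22 SE on the log2 scale (adjusted p = 0.093), which passed the test without control replicate 1 (0.60, adjusted p = 0.044), without combination replicate 3 (0.45, adjusted p = 0.018) with DESeq2 (0.47, adjusted p = 0.020), with voom and limma (0.47, adjusted p = 0.029), with only the 6 libraries compared (0.48, adjusted p = 0.012) and with library size as the only scaling (0.70, adjusted p = 0.022). TRIM6, which makes unanchored ubiquitin chains and was listed among the tissue-restricted members, had 12.1, 13.9 and 13.5 CPM in controls, 20.3, 20.4 and 15.2 under decitabine, and 13.3, 12.0 and 12.3 under the combination treatment. TRIM6 rose with decitabine (log2 0.50 ± 0.12 SE, adjusted p = 0.002) and was lower under the combination treatment than under decitabine (log2 -0.57 ± 0.12 SE, adjusted p = 0.0075). This second call of TRIM6 was lost at an adjusted p of 0.051 without decitabine replicate 2 (-0.50) or combination replicate 2 (-0.54). TRIM6 and TRIM34 share sequence with the read-through gene TRIM6-TRIM34, which averaged 0.217, 0.536 and 0 CPM in the 3 groups, so the split of reads among them is uncertain.

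TRIM38, TRIM56, TRIM69 and TRIM26 rose with decitabine and stood near the control level under the combination treatment. TRIM38, a regulator of innate immune signalling, averaged 21.3 ± 0.603 CPM in controls, 48.8 ± 5.42 under decitabine and 21.5 ± 5.37 under the combination treatment (SD, n = 3). TRIM56, a ligase of the pathways that sense cytosolic nucleic acid, averaged 60.8 ± 5.25, 132 ± 5.35 and 68.1 ± 19.0 CPM in the same order. TRIM69, a microtubule-bound antiviral member, averaged 36.6 ± 0.373, 81.6 ± 7.26 and 34.1 ± 6.69 CPM, and TRIM26, another regulator of interferon signalling, 57.9 ± 2.17, 85.0 ± 2.65 and 60.4 ± 6.96 CPM. In these 4 genes every decitabine library exceeded every control and every combination library. The rise with decitabine was 2.29-fold for TRIM38, 2.17-fold for TRIM56, 2.23-fold for TRIM69 and 1.47-fold for TRIM26. On the log2 scale their differences between the treatments were -1.18, -0.96, -1.26 and -0.49, with adjusted p from 0.00018 for TRIM69 to 0.0062 for TRIM56. Against control under the combination treatment they were 0.01, 0.16, -0.10 and 0.06 and did not pass the test. Without combination replicate 3, TRIM69 was called lower than control at -0.27 (adjusted p = 0.019). In that fit TRIM38 was at -0.22, TRIM56 at -0.08 and TRIM26 at -0.03 against control, and none of these was called. With library size as the only scaling, TRIM26 was called higher than control at 0.28 (adjusted p = 0.011).

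TRIM14 and TRIM25 act directly on the sensing of viral RNA. TRIM14 is an adaptor without a RING domain at the mitochondrial protein MAVS, and TRIM25 ubiquitinates the RNA sensor RIG-I. TRIM14 had 111, 108 and 106 CPM in controls, 135, 122 and 112 under decitabine, and 50.4, 50.3 and 71.1 under the combination treatment. TRIM25 had 327, 301 and 280 CPM in controls, 327, 276 and 269 under decitabine, and 158, 174 and 217 under the combination treatment. For both genes each combination library lay below every other library. TRIM14 was 1.89-fold lower than control (log2 -0.92 ± 0.12 SE, adjusted p = 2.5e-05) and 2.15-fold lower than under decitabine (log2 -1.10 ± 0.12 SE, adjusted p = 0.00041). TRIM25 was 1.65-fold lower than control (log2 -0.73 ± 0.11 SE, adjusted p = 8.4e-05) and 1.59-fold lower than under decitabine (log2 -0.67 ± 0.11 SE, adjusted p = 0.003). Under decitabine itself TRIM14 was at 0.18 ± 0.12 SE (adjusted p = 0.19) and TRIM25 at -0.06 ± 0.11 SE (adjusted p = 0.67) against control. TRIM14 was called higher in this comparison without combination replicate 3 (0.18, adjusted p = 0.039), with only the 6 libraries compared (0.21, adjusted p = 0.025) and with library size as the only scaling (0.43, adjusted p = 0.011). Per kilobase of exon, TRIM25 with 24.4 CPM and TRIM14 with 19.8 CPM ranked 2 and 3 among the members in the controls, behind TRIM28, while TRIM22 stood at 0.0528 CPM per kilobase.

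**Figure D2:**
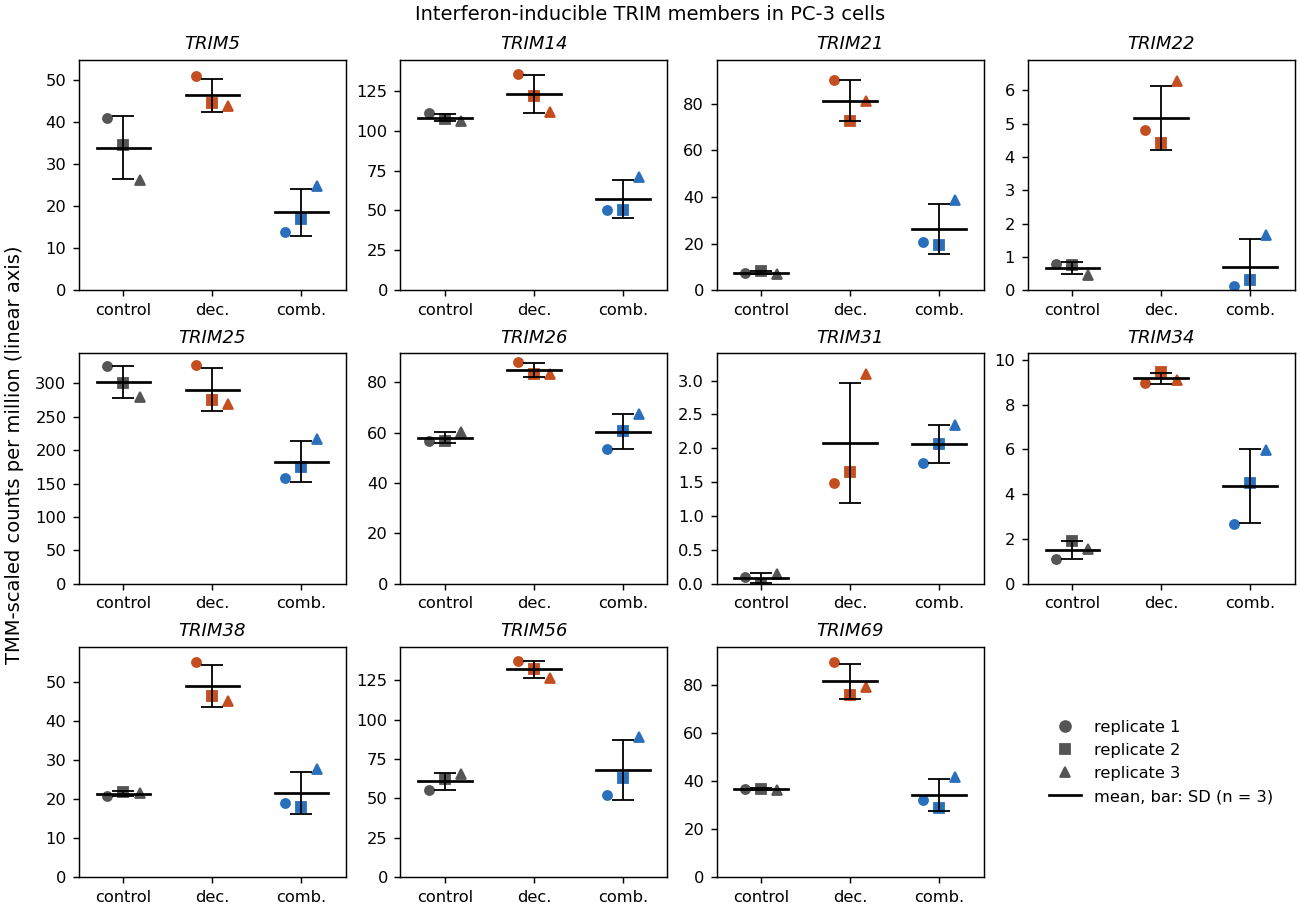
Levels of the 11 interferon-inducible members in each library, in TMM-scaled CPM on linear axes from 0 that differ between panels. Points are single libraries, shaped by replicate number, and black lines and bars give the mean and SD of 3 libraries (a bar that would pass below 0 is cut there). The triangle of the combination treatment (replicate 3) is the highest of its group in every panel, and TRIM31 is the panel without a drop from decitabine to the combination treatment.

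TRIM31, a ligase that acts on MAVS and on inflammasome components, differed from the rest of its class. It had 2, 0 and 3 counts in the controls, 35, 39 and 73 under decitabine, and 41, 47 and 55 under the combination treatment. Both treatments lay far above control and overlapped each other. The ratio of scaled counts to control was 25.0 for decitabine (exact 95% interval 10.5 to 78.2) and 25.0 for the combination treatment (10.5 to 78.1). The fitted log2 values were 4.55 ± 0.53 SE for both, and without control replicate 3 they were 5.22 for both. The difference between the treatments was 0.00 ± 0.31 SE on the log2 scale (adjusted p = 0.99). Such intervals, here and below, cover counting error alone. Its antisense gene TRIM31-AS1 had 7 to 25 counts per library, and no source used here states whether counting used strand.

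There were 7 tested members, TRIM29, TRIM31, TRIM50, TRIM54, TRIM55, TRIM60 and TRIM71, with few counts in the controls. They passed the low-count filter through treated libraries alone, so a higher level under treatment was fixed by that filter, and their values against control are a description given without p-values. TRIM50, a ligase known from gastric parietal cells, had 1, 0 and 0 counts in controls, 87, 112 and 139 under decitabine, and 116, 128 and 107 under the combination treatment. TRIM55, a sarcomere-associated ligase of striated muscle, had 2 counts over the controls, 265 under decitabine and 263 under the combination treatment. The ratio to control was 288 for TRIM50 under decitabine (exact 95% interval 51.3 to 11392) and 113 for TRIM55 (30.9 to 936). TRIM54, a muscle ligase related to TRIM55, went from 5 counts over the controls to 87 and 125, with ratios of 14.8 (6.11 to 46.7) and 21.8 (9.11 to 68.4). TRIM29, a member without a RING domain typical of stratified epithelium, went from 2 counts to 72 and 43, with ratios of 30.6 (8.18 to 258) and 18.8 (4.89 to 160). Every treated library of these 4 genes exceeded every control. None of them passed the test between the treatments, where the log2 values were 0.09 for TRIM50, 0.02 for TRIM55, 0.56 for TRIM54 and -0.71 for TRIM29. The fitted log2 values for decitabine were 7.75 for TRIM50, 6.59 for TRIM55, 3.80 for TRIM54 and 4.72 for TRIM29. Leaving out control replicate 1 moved TRIM50 to 9.75, and leaving out control replicate 3 moved TRIM54 to 4.47.

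TRIM50 has the near-identical copies TRIM73 and TRIM74, between which estimated counts can be divided, so the 3 values are uncertain one against another. TRIM73 rose to a log2 value of 1.33 with decitabine and 1.09 with the combination treatment (adjusted p = 0.00014 and 0.00092). TRIM74, which without the decitabine libraries would not have passed the filter, had 0, 0 and 0.642 CPM in controls, 1.06, 0.844 and 0.847 under decitabine, and 0.261, 0.308 and 0.0852 under the combination treatment. The values of TRIM74 that involve decitabine are therefore a description, also where a call is given. Its call for decitabine (log2 2.06, adjusted p = 0.039) was lost without either control replicate 1 (1.48, adjusted p = 0.093) or control replicate 2 (1.48, adjusted p = 0.096), without decitabine replicate 1 (1.94, adjusted p = 0.091), 2 (2.11, adjusted p = 0.074) or 3 (2.11, adjusted p = 0.068), and without combination replicate 1 (2.05, adjusted p = 0.059) or 2 (2.06, adjusted p = 0.056). Without control replicate 3, which holds all of its control counts, the combination treatment was called higher than control (5.33, adjusted p = 0.0061). Between the treatments TRIM74 was at -2.05 (adjusted p = 0.099). It was called lower without the low-count filter (-2.04, adjusted p = 0.00042) and without control replicate 3 (-2.05, adjusted p = 0.011). Only the 6 libraries compared also gave this call, without the replicate block (-2.05, adjusted p = 0.015) and with it (-2.07, adjusted p = 0.0075).

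Of the members known mainly from testis or early embryo, 3 of 17 were tested. TRIM71, an RNA-binding regulator of early development also known as LIN41, had 3, 2 and 1 counts in controls, 17, 23 and 34 under decitabine, and 26, 26 and 29 under the combination treatment. TRIM60, a testis member, had 0, 0 and 1 counts in controls, 13, 10 and 5 under decitabine, and 14, 9 and 16 under the combination treatment. In both genes every treated library exceeded every control, and the treatments overlapped. The ratio of TRIM71 to control was 10.5 with decitabine (exact 95% interval 4.60 to 29.5) and 11.8 with the combination treatment (5.19 to 33.1). The log2 fold changes of TRIM71 were 3.32 ± 0.46 SE and 3.49 ± 0.46 SE against control and 0.17 between the treatments (adjusted p = 0.74). For TRIM60 the ratio to control was 23.8 with decitabine (exact 95% interval 3.94 to 974) and 34.0 with the combination treatment (5.76 to 1379). Without control replicate 3, the library with its only control count, the fitted log2 values of TRIM60 moved from 4.17 and 4.68 to 6.17 and 6.68. The fitted log2 value of TRIM60 between the treatments was 0.51 (adjusted p = 0.46).

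**Figure D3:**
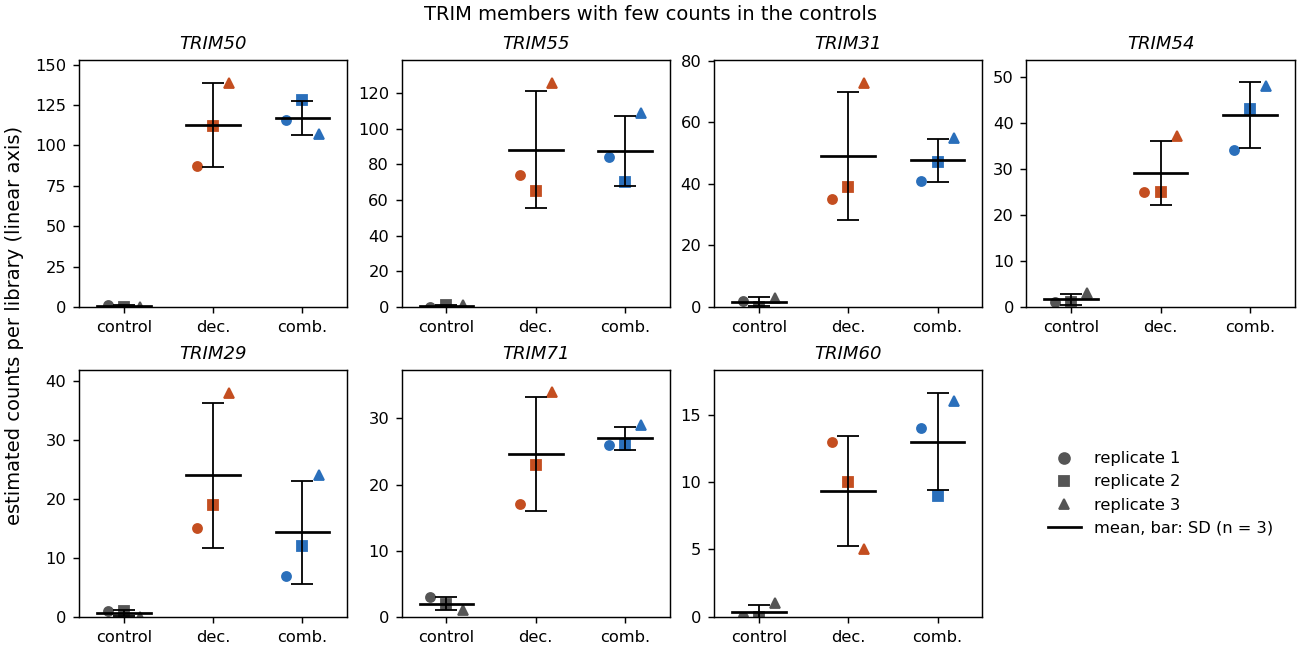
Estimated counts per library of the 7 tested members with few counts in the controls, on linear axes from 0 that differ between panels. Points are single libraries, and black lines and bars give the mean and SD of 3 libraries. Controls hold at most 3 counts in each panel, and decitabine and the combination treatment overlap in every panel.

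The other 14 members of the testis and embryo class were not tested. Among them 10 members, TRIM42, TRIM43, TRIM49B, TRIM49C, TRIM51, TRIM51G, TRIM64, TRIM64B, TRIM64C and TRIM77, had 0 counts in all 9 libraries. A count of 0 allows up to 3 counts, or 0.133 to 0.137 CPM, in 1 library. TRIM43B had 0, 2 and 6 counts over the 3 controls, decitabine and combination libraries, TRIM75 had 0, 0 and 5, and TRIM48 and TRIM49 had 1 each, under decitabine. Several of these are near-identical copies, among which reads cannot be assigned with certainty. Of the 7 untested members of other tissues, TRIM72, a membrane-repair protein of muscle, had the most, with 12, 20 and 41 counts over the groups. TRIM10 had 1, 10 and 9 counts, TRIM15 had 0, 6 and 12, TRIM40 had 1, 9 and 1, TRIM63 had 5, 5 and 2, TRIM17 had 0, 1 and 2, and TRIM67 had 1 count under decitabine. For TRIM15 the ratio to control was at least 1.70 with decitabine and at least 3.49 with the combination treatment, taking the control group at 3 counts.

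Decitabine acts on CpG methylation, so the CpG content of the promoter windows was counted. Over windows of 300 bases the median was 22 CpG for all protein-coding genes, 24 for the broadly expressed members, 12 for the other tissue-restricted, 6.5 for the interferon-inducible and 1 for the testis and embryo members. Of the 7 members with few counts in the controls 4 had a window, with 1 CpG in TRIM31, 2 in TRIM54, 3 in TRIM50 and 27 in TRIM71. The 250 bases before the start of TRIM50, at chr7:73325576-73325825 on the minus strand inside a longer TRIM50 transcript and outside exons, hold 3 CpG. The 250 bases before the start of TRIM71, at chr3:32817747-32817996 on the plus strand and outside any annotated gene, hold 25. Both are shown with CpG in capitals, since both members were near 0 in the controls and higher with both treatments. Methylation of these windows was not analysed here.
TRIM50: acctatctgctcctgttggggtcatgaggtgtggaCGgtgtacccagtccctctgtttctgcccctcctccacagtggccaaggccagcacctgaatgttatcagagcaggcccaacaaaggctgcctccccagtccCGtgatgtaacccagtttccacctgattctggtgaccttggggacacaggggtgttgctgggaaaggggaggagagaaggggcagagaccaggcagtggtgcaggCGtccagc
TRIM71: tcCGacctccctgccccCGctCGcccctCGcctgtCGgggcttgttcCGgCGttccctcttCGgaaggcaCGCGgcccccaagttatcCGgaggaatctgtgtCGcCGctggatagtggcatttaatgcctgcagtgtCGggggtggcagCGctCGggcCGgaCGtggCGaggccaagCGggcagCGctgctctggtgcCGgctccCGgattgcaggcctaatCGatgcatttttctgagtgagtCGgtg

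The PHD-bromodomain members did not share 1 pattern. TRIM28, the corepressor KAP1 that KRAB zinc finger proteins bring to retroelements, was the highest member per kilobase of exon in the controls, at 162 CPM per kilobase. It had 675, 703 and 716 CPM in controls, 349, 357 and 338 under decitabine, and 384, 360 and 326 under the combination treatment. Every treated library lay below every control, and the treatments overlapped. TRIM28 fell by 1.0 ± 0.07 SE on the log2 scale with decitabine (adjusted p = 4.1e-08) and 1.96-fold with the combination treatment (log2 -0.97 ± 0.07 SE, adjusted p = 5.7e-08), with a difference of 0.03 ± 0.07 SE between them (adjusted p = 0.79). TRIM24, a nuclear receptor coregulator, averaged 45.7 ± 2.88, 27.3 ± 2.89 and 28.3 ± 0.934 CPM (SD, n = 3) and fell by 0.74 ± 0.09 and 0.69 ± 0.09 SE on the log2 scale. TRIM33, which acts on SMAD signalling, averaged 67.7 ± 5.55, 69.8 ± 3.63 and 67.5 ± 5.66 CPM and was called in none of the comparisons, with log2 values of 0.04, 0.00 and -0.05. TRIM33 was called higher with library size as the only scaling, at 0.29 for decitabine and 0.22 for the combination treatment, a scaling that moved the median of all genes to 0.28 and 0.27.

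TRIM66, the member of this subfamily known from testis, fell in all 3 comparisons. It had 20.2, 22.4 and 21.0 CPM in controls, 19.0, 14.5 and 15.5 under decitabine, and 9.75, 11.7 and 10.8 under the combination treatment. The 3 groups did not overlap. TRIM66 was 1.97-fold lower than control under the combination treatment (log2 -0.98 ± 0.12 SE, adjusted p = 4.6e-06) and 1.52-fold lower than under decitabine (log2 -0.60 ± 0.12 SE, adjusted p = 0.0054). The decrease with decitabine was smaller (log2 -0.38 ± 0.11 SE, adjusted p = 0.0089) and was not called with library size as the only scaling (-0.13, adjusted p = 0.32).

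**Figure D4:**
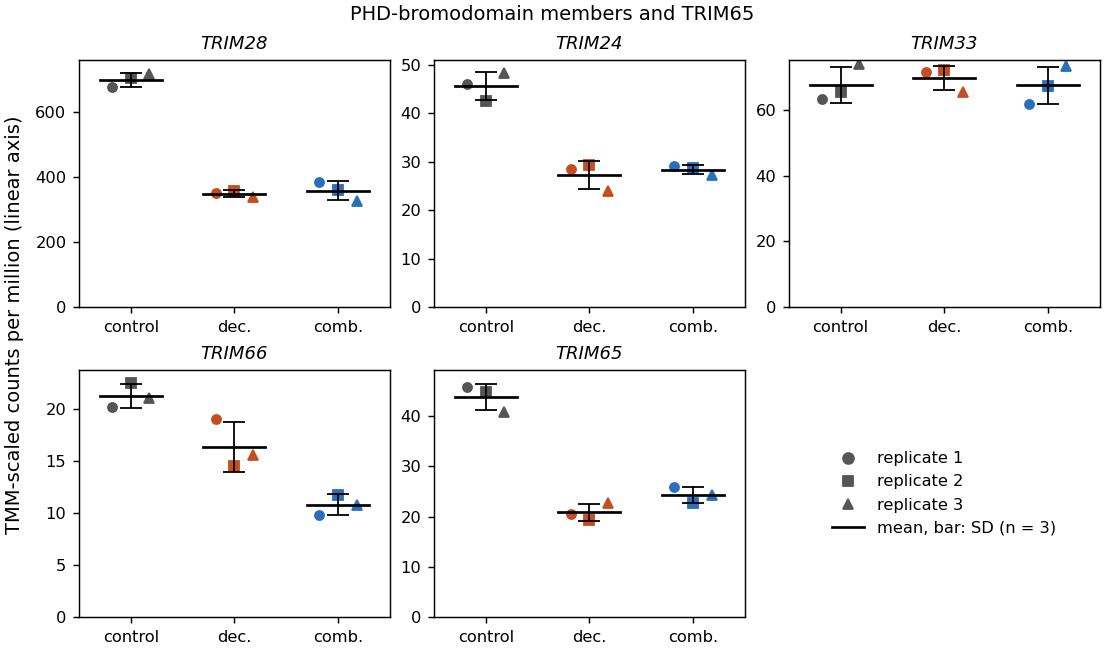
Levels of TRIM28, TRIM24, TRIM33, TRIM66 and TRIM65 in each library, in TMM-scaled CPM on linear axes from 0 that differ between panels. Points are single libraries, and black lines and bars give the mean and SD of 3 libraries. TRIM28, TRIM24 and TRIM65 drop with both treatments, the groups of TRIM33 overlap, and TRIM66 is lowest under the combination treatment.

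Among all 26 broadly expressed members, 6 were upregulated and 9 downregulated with decitabine, or 23.1% and 34.6% beside 36.3% and 32.5% of all genes. With the combination treatment 8 and 9 were called, or 30.8% and 34.6% beside 35.9% and 31.3% of all genes. Their median log2 fold changes were 0.03 and 0.07, close to those of all genes. Between the treatments 1 was higher and 2 were lower, or 3.85% and 7.69% beside 7.67% and 8.02% of all genes, and their log2 values spanned -0.26 to 0.33. The same 9 members were lower under both treatments, TRIM28 and TRIM24 among them. TRIM65, which ubiquitinates the RNA sensor MDA5, had the strongest decrease with decitabine, from 43.8 ± 2.64 to 20.8 ± 1.71 CPM (SD, n = 3), at -1.07 ± 0.09 SE on the log2 scale, and was at -0.85 ± 0.09 SE with the combination treatment. TRIM32, a ligase mutated in a limb-girdle muscular dystrophy, was at -0.78 and -0.86, and TRIM2, a neuronal ligase of neurofilament, at -0.74 and -0.78. TRIM3, TRIM4, TRIM13 and TRIM68 made up the 9 and ranged from -0.73 to -0.31 over both comparisons. The call of TRIM13 with decitabine was lost without decitabine replicate 2 (-0.30, adjusted p = 0.055), and its call with the combination treatment (-0.31) was lost without control replicate 1 (-0.30) or 3 (-0.29) and without combination replicate 1 (-0.30) or 3 (-0.26). With library size as the only scaling TRIM13 was called in neither comparison (-0.11 and -0.09), nor was TRIM4 with decitabine (-0.12).

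Upregulated with both treatments were TRIM8, TRIM35, TRIM39, TRIM44 and TRIM59. TRIM39 was at 0.88 and 0.67 on the log2 scale, TRIM8, a regulator of cytokine signalling, at 0.60 and 0.77, and TRIM44, a member without a RING domain, at 0.58 and 0.35. TRIM39 averaged 21.3, 39.3 and 33.9 CPM in controls, decitabine and combination treatment. The overlapping read-through gene TRIM39-RPP21 averaged 0, 0.437 and 0.117 CPM, and the split of reads between these genes is uncertain. The values of TRIM35 and TRIM59 lay between 0.23 and 0.24, and their calls turned on single libraries. With decitabine the call of TRIM35 was lost without control replicate 2 (0.21, adjusted p = 0.055), and that of TRIM59 without control replicate 1 (0.19) or 2 (0.18) and without decitabine replicate 1 (0.21) or 2 (0.22). With the combination treatment TRIM35 was lost without control replicate 2 (0.22) or combination replicate 2 (0.19), and TRIM59 without control replicate 1 (0.20) or 2 (0.19). TRIM47 was called with the combination treatment against control (0.48, adjusted p = 0.00031) and against decitabine (0.33 ± 0.09 SE, adjusted p = 0.027). The latter call was lost without decitabine replicate 1 (0.23, adjusted p = 0.093) or 2 (0.32, adjusted p = 0.10), and without combination replicate 1 (0.32, adjusted p = 0.076) or 2 (0.33, adjusted p = 0.095). TRIM11 and TRIM23 were called higher than control with the combination treatment alone, at 0.20 and 0.30. The call of TRIM11 was lost without control replicate 2 (0.21) or 3 (0.15) and without combination replicate 1 (0.16) or 2 (0.18), and that of TRIM23 without control replicate 1 (0.28) or combination replicate 1 (0.28). TRIM37, which regulates centrosomes, was called with decitabine (0.25, adjusted p = 0.0032). With the combination treatment TRIM37 was at 0.15 (adjusted p = 0.054). It was called higher there with DESeq2 size factors (0.16, adjusted p = 0.041) and with DESeq2 (0.16, adjusted p = 0.036). So it was with a filter at a mean of 10 counts (0.17, adjusted p = 0.035) and with only the 6 libraries compared (0.17, adjusted p = 0.047). Library size as the only scaling gave 0.37 (adjusted p = 0.00025).

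The 2 broadly expressed members that were lower between the treatments were TRIM4, at -0.26 (adjusted p = 0.044), and TRIM44, at -0.24 (adjusted p = 0.030). The call of TRIM4 was lost without any of the controls (-0.25 each), without decitabine replicate 1 or 2 (-0.23 each), and without combination replicate 1 (-0.20) or 2 (-0.30). The call of TRIM44 was lost without control replicate 2 (-0.24), without decitabine replicate 1 (-0.21) or 2 (-0.24), and without combination replicate 1 (-0.20) or 2 (-0.23). TRIM39 became lower between the treatments without combination replicate 3 (-0.29, adjusted p = 0.028). The members TRIM16, TRIM27, TRIM33, TRIM41, TRIM45, TRIM52, TRIM61 and TRIM62 passed the test in no comparison. With 1 library left out, 3 of them were called against control with the combination treatment, namely TRIM16 without decitabine replicate 1 (0.19, adjusted p = 0.048), TRIM27 without control replicate 3 (-0.19, adjusted p = 0.045), and TRIM61 without decitabine replicate 3 (0.63, adjusted p = 0.044) or combination replicate 3 (0.81, adjusted p = 0.028).

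The remaining tissue-restricted members were expressed in the controls and changed less. TRIM36, a ligase studied in sperm and in cell division, had 6.01, 7.05 and 8.98 CPM in controls, 18.0, 18.6 and 19.3 under decitabine, and 17.3, 18.5 and 19.6 under the combination treatment. It rose with both treatments, at log2 1.34 ± 0.13 SE and 1.33 ± 0.13 SE, with -0.01 ± 0.12 SE between them (adjusted p = 0.96). TRIM58, an erythroid ligase, had 79.0, 82.6 and 83.4 CPM in controls, 106, 143 and 152 under decitabine, and 88.4, 112 and 141 under the combination treatment. TRIM58 rose with decitabine (0.71, adjusted p = 0.0059). Its call with the combination treatment (0.48, adjusted p = 0.038) was lost without control replicate 1 (0.45, adjusted p = 0.11), 2 (0.48, adjusted p = 0.081) or 3 (0.49, adjusted p = 0.084), and without combination replicate 2 (0.49, adjusted p = 0.072) or 3 (0.29, adjusted p = 0.11). Between the treatments TRIM58 was at -0.23 (adjusted p = 0.41), and the replicate block in the 6 libraries called it lower at -0.24 (adjusted p = 0.031).

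TRIM7, a ligase that binds glycogenin, had the larger increase of the 2 members called higher between the treatments, TRIM7 and TRIM47, with 18.5, 16.6 and 15.2 CPM under decitabine and 26.0, 21.7 and 19.0 under the combination treatment. The value was 0.41 ± 0.12 SE on the log2 scale (adjusted p = 0.034). This call was lost without decitabine replicate 2 (0.40, adjusted p = 0.11) or 3 (0.34, adjusted p = 0.087), and without combination replicate 1 (0.28, adjusted p = 0.16) or 2 (0.42, adjusted p = 0.095). Against control TRIM7 was at -0.26 with decitabine (adjusted p = 0.066) and was called lower there without control replicate 2 (-0.33, adjusted p = 0.047), decitabine replicate 1 (-0.34, adjusted p = 0.033), or combination replicate 1 (-0.27, adjusted p = 0.033) or 3 (-0.27, adjusted p = 0.038). TRIM46, which organizes axonal microtubules, fell with decitabine at -0.57 (adjusted p = 0.0089) but was not called with library size as the only scaling (-0.32, adjusted p = 0.10), and the brain member TRIM9 passed the test in no comparison.

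Other genes of these pathways were read from lists chosen like those above. Of 12 genes of the interferon response, 11 rose and 1, MAVS, fell with decitabine, or 91.7% and 8.33% beside 36.3% and 32.5% of all genes. With the combination treatment 9 were higher and 1 was lower than control, or 75.0% and 8.33% beside 35.9% and 31.3% of all genes. Their median log2 values were 3.45 with decitabine and 1.94 with the combination treatment. Between the treatments 11 were lower under the combination treatment than under decitabine, beside 8.02% of all genes. Of 11 family members with other names or read-through symbols 5 were tested, and 2 rose and 1 fell with decitabine. They included PML, an interferon-inducible organizer of nuclear bodies, whose log2 value was 1.74 with decitabine, 0.66 for the combination treatment and -1.08 for the difference of both. Of 12 ubiquitin-activating and -conjugating enzymes 2 rose and 5 fell with decitabine, or 16.7% and 41.7% beside 36.3% and 32.5% of all genes. The 2 that rose were UBA7 at 3.18 and UBE2L6 at 3.58, the enzymes that pass on the ubiquitin-like ISG15. All 7 genes of TRIM28 partners fell with decitabine, from SETDB1 at -0.76 to CBX3 at -0.22, beside 32.5% of all genes, and 5 fell with the combination treatment, beside 31.3%. CBX5, which encodes heterochromatin protein HP1 alpha, differed from the other partners in having passed the test between the treatments, at 0.61 (adjusted p = 0.00046). In bulk libraries a lower level in all cells and expression in fewer cells cannot be told apart, which holds for every gene given here.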

How the data were processed

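Total RNA of PC-3 cells was sequenced on the BGISEQ-500 platform in 9 libraries, 3 per group, and groups were taken from the sample labels. The authors trimmed the reads with TrimGalore and counted them with kallisto against GRCh38, and the estimated count per Ensembl gene was deposited by the authors without normalization and with decimals. The log2 CPM values deposited beside them were not used. Counts were rounded, genes were kept by filterByExpr (18532 of 60617), and edgeR 4.0.16 in R 4.3.3 fitted 1 mean per group over all 9 libraries with TMM scaling, robust dispersions and the quasi-likelihood test. Benjamini-Hochberg adjustment covered the whole table, and the threshold was 0.05. Symbols and positions came from GENCODE release 44 (60357 identifiers matched). Totals of 21934307 to 22489684 counts put 3 counts at 0.133 to 0.137 CPM. Members with 1 to 10 counts over the controls and more than 3 over the treated group were compared by ratios with exact 95% intervals. Not all of these ratios are given.

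Members and lists were chosen with earlier results of these data known, and lists rest on background knowledge. Members given with full statistics were the interferon-inducible and PHD-bromodomain members, testis or embryo members averaging 3 or more counts in some group, and the 5 called members with the largest change in each direction of each comparison. Other members were chosen after their values were seen. Same-numbered libraries deviated together for decitabine with the combination treatment (correlations of 0.142 to 0.355), but not for controls with decitabine (-0.1 to -0.059), and 0.049 to 0.184 was found for controls with the combination treatment. The fit was tested on simulated counts. Alternatives were other scalings, DESeq2 1.42.0, voom with limma 3.58.1, other filters, the replicate block, only the 6 libraries compared, a log2 fold change of at least 1, and leaving out each library. The replicate block in only the 6 libraries was added after seeing the data. Some results on single genes are left out of this text.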

Additional observations from a re-analysis of the deposited data

How the results depend on the processing

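With library size as the only scaling, all genes had a median log2 value of 0.28 with decitabine and 0.27 with the combination treatment, 7 members were downregulated with decitabine, and TRIM33 turned from 0.00 to 0.22 with the combination treatment. With a log2 fold change of at least 1 as a second condition, 16 members were up- and 2 downregulated with decitabine, 11 and 0 with the combination treatment (0 interferon-inducible members downregulated), and 0 were higher and 7 lower between the treatments. With only the 6 libraries compared, 10 interferon-inducible members were upregulated with decitabine, and 0 members were higher between the treatments. Leaving out 1 library gave 0 to 2 members higher between the treatments and 3 to 5 interferon-inducible members below control under the combination treatment. For TRIM22 under the combination treatment against control, leaving out 1 library gave -1.58 (without combination replicate 3) to 0.57. With the replicate block over 9 libraries, members lower between the treatments stayed at 14, and with the block in 6 libraries they were 16. Against control the block gave 25 up- and 12 downregulated members with decitabine and 20 and 13 with the combination treatment. With decitabine against control the block added TRIM7 (-0.27) and TRIM62 (0.26) and removed TRIM74 (2.12), and it changed no call of an interferon-inducible member. DESeq2 size factors gave 8, 3 and 10 as the calls of interferon-inducible members upregulated with decitabine, upregulated with the combination treatment and lower between the treatments. The values of the members named by rule were tallied once per alternative. For decitabine against control 18 passed the test under an alternative alone and 1 lost it. For the combination treatment against control 3 passed it alone and 2 changed sign and passed it. Between the treatments 11 lost it. Members not named by rule, such as TRIM4, TRIM6 and TRIM44, are outside this tally, and their calls between the treatments were also lost in some fits. Whether the 21 untested members are silent or below the depth cannot be told apart. The causes of these changes were not tested.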
